A study of Rattus norvegicus with 48 samples.

Results

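The miR-183, miR-96 and miR-182 cluster was followed through 48 small RNA libraries of 2 brain regions, amygdala [A] and ventral striatum [V], of Long Evans rats of postnatal day 42. It was represented by 6 of the 1063 names of the deposited table, namely the precursors mir-183, mir-96, mir-182 and mir-3553 and the mature miR-183-5p and miR-3553. These names were selected on the values themselves, because miR-183-5p had stood out in the amygdala for the effect of enrichment in ethanol-exposed rats [E(SvN)]. In the ventral striatum mir-183, mir-3553 and miR-3553 had stood out for the same effect and for the effect of ethanol in enriched rats [S(EvC)]. mir-96 and mir-182 are the other hairpins of the cluster. The mature name of the reads of mir-182, miR-182, had also stood out in the ventral striatum for E(SvN). For these 3 comparisons the members are therefore described and not tested. A further 3 mature names of these hairpins, miR-182, miR-96-5p and miR-183-3p, were read beside them. Rats were born to dams given intraperitoneal injections of ethanol (E) or of saline (control, C) on a single day of gestation. From weaning they were housed with same-sex littermates (non-enriched, N) or with same-sex rats from an untreated dam (socially enriched, S), and rats of every group had a social interaction test and ketamine with xylazine before the brain was taken. Each library held the pooled RNA of several rats of the same sex and group, and 3 female (F1 to F3) and 3 male (M1 to M3) libraries made up each of the 4 groups in each region, so that 24 libraries represented a region and 6 a group. The p-values thus measure the spread between pools.

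The cluster is a set of microRNA genes that lie close together and are transcribed in the same direction, and it is best known from sensory organs, where it is abundant in photoreceptors, in the hair cells of the inner ear and in olfactory tissue. A microRNA guides silencing complexes to messenger RNAs through its seed, the bases 2 to 8 counted from the 5′ end, and mutations in the seed of miR-96 cause hearing loss. A hairpin precursor is cut to a mature miRNA, so a precursor name and its mature name largely count the same reads in a library of small RNA.

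The mature sequences explain both which names belong together and which of them compete for reads. They were taken from RefSeq for the build GRCr8, with the seed in capitals.
miR-183-5p: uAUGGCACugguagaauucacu
miR-96-5p: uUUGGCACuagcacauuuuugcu
miR-182: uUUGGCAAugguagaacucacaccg
miR-3553: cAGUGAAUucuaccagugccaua
The 3 sense miRNAs have seeds that are alike but not identical. Counted from the 5′ end, the seeds of miR-183-5p and miR-96-5p differ by A2U, those of miR-96-5p and miR-182 by C8A, and those of miR-183-5p and miR-182 by both changes. The seed of miR-3553 is unrelated to these. In GRCr8 the hairpins of Mir182 (chr4:59752246-59752307), Mir96 (chr4:59755841-59755946) and Mir183 (chr4:59756044-59756153) lie on the minus strand of chromosome 4, with 3533 bases between the first and the next and 97 bases between Mir96 and Mir183. Mir3553 (chr4:59756047-59756152) is annotated on the plus strand, inside the span of Mir183. The reverse complement of miR-3553 holds the whole of miR-183-5p and 1 more base, so that 22 bases are shared between opposite strands. A read of miR-183-5p therefore matches the place of miR-3553 as well, and without strand the reads of the names cannot be told apart. The deposited values, made on the build Rn5, carry no coordinates.

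All libraries were deep enough for miR-182, and far fewer reads stood behind mir-96 and miR-183-5p. From the smallest step between values a library of the amygdala held 363135 to 1287697 mature reads and one of the ventral striatum 739481 to 1370407. A floor of 3 reads was worth 2.33 to 8.26 RPM in the amygdala and 2.19 to 4.06 RPM in the ventral striatum for mature names. RPM values were scaled within the mature and within the precursor names, and floors cover counting error only. The brain miRNAs miR-124-3p (1476 to 3249 RPM) and miR-9a-5p (21813 to 42732 RPM) were present in every library of the regions.

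miR-183-5p and miR-3553 were a single pool of reads that was given nearly whole to miR-3553. In 45 of 48 libraries miR-183-5p stood under 0.05 reads, while the sum of both names, called the pair below, was 2 to 544 reads. Over all libraries the pair held 3221 reads, of which 8.62, or 0.267%, were listed under miR-183-5p. The exceptions were 3 amygdala libraries. In the ethanol-exposed non-enriched F3 library miR-183-5p was 6.83 RPM and miR-3553 0.773 RPM, in the ethanol-exposed non-enriched M2 library these values were 4.82 and 0.546 RPM, and in the control non-enriched M2 library they were 1.08 and 26.2 RPM. The first of these libraries had 7 reads of the pair and the second 2 reads, among the lowest of the 48. The third had 12 reads. The ethanol-exposed enriched F2 amygdala library, also with 7 reads of the pair, had 0.167% of them under miR-183-5p.

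The precursor names were divided in another way. mir-183 took 14.003% of the sum of mir-183 and mir-3553 in every library, and mir-3553 was 6.14 times mir-183 in each of the 48. The precursors thus carried the same information as the pair, with a Spearman rho to the pair of 0.992 for each over the 48 libraries. For this reason mir-183, mir-3553, miR-3553 and the pair are not separate lines of evidence, and the pair is used below. How the authors' software divided such reads is not given in the sources used here.

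**Figure D1:**
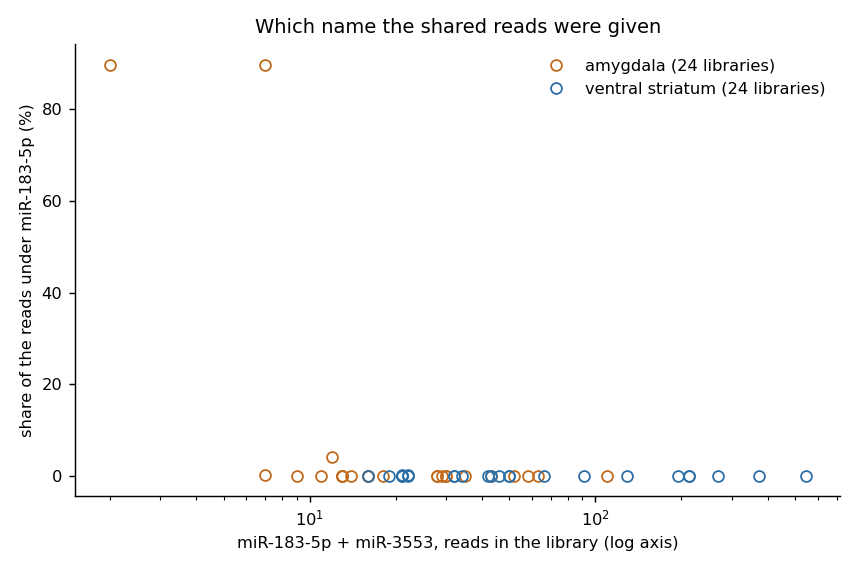
Share of the reads of miR-183-5p and miR-3553 listed under miR-183-5p (y, percent) against the reads of both names in the library (x, log axis), with a circle for each of 48 libraries. 2 amygdala libraries with 2 and 7 reads sit at 89.8%, and nearly all others at the bottom of the axis.

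The split decided the value of miR-183-5p in the comparison that chose it, A E(SvN), which is described here without a test. miR-183-5p averaged 1.94 ± 3.07 RPM (SD, n = 6) in the ethanol-exposed non-enriched libraries and 0.00542 ± 0.0128 RPM (SD, n = 6) in the ethanol-exposed enriched ones. Of the 125 reads of the pair in the former group 8.08 were listed under miR-183-5p. The pair itself went the other way, with 26.3 ± 17.1 RPM (SD, n = 6) without and 40.01 ± 37.0 RPM (SD, n = 6) with enrichment. It ranged from 5.37 to 48.2 RPM around a median of 29.9 in the non-enriched and from 14.6 to 113 RPM around a median of 28.4 in the enriched libraries, so that the groups overlapped over most of their range.

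miR-182 was the most abundant product of the cluster in each region. It averaged 343 ± 261 RPM (SD, n = 24) in the amygdala, rank 122 of 612 mature names, and 497 ± 601 RPM (SD, n = 24) in the ventral striatum, rank 109. Its precursor mir-182 followed it, with miR-182 at 1.12 to 1.18 times mir-182 in each library. miR-3553 ranked 238 and 181. mir-96 was 0 in 24 libraries, 15 of them from the amygdala, and above 3 reads in 1 amygdala and 8 ventral striatum libraries. A listed 0 allows up to 3 reads, which for precursor names is up to 7.16 RPM in the amygdala and 3.43 RPM in the ventral striatum. miR-183-3p, from the other arm of the miR-183 hairpin, was 0 in 44 of 48 libraries and never above 3 reads.

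The libraries of a group differed from each other far more in these names than in most others. Within groups of the ventral striatum miR-182 had a median coefficient of variation of 89.7%, against a median of 19.3% and a 90th percentile of 40.7% over the 596 names with a mean of at least 10 RPM, and 14 names had a larger one. In the amygdala it was 77.9% against a median of 21.4%, with 24 of 582 names above it.

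In the ventral striatum the spread came from libraries that were either low or high. The pair was over 100 RPM in 7 of 24 libraries, where it lay between 146 and 559 RPM, and between 15.6 and 75.6 RPM in the other 17. Of the 6 control non-enriched libraries F2 had 188, F3 had 217 and M3 had 206.1 RPM. Among the ethanol-exposed enriched libraries F1 had 339, F3 had 559 and M2 had 368 RPM, while F2, M1 and M3 had 26.03, 20.4 and 24.8 RPM. The ethanol-exposed non-enriched M3 library had 146 RPM, and no control enriched library passed 75.6 RPM. High libraries thus occurred in 3 of the 4 groups and in each sex.

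The other members were high in the same 7 libraries. mir-182 was 667 to 2087 RPM in the 7 and 71.7 to 261 RPM in the other 17, without overlap, and mir-96 was 3.74 to 10.5 RPM against 0 to 2.97 RPM, again without overlap. For mir-96 the lowest of the 7 held 5 reads and the highest of the 17 held 4, close to the floor of 3 reads. The sorting into 7 and 17 was made on the pair and not by treatment, and no test was made of it. In the amygdala the pair was over 100 RPM in the control non-enriched F1 library (122 RPM) and in the ethanol-exposed enriched F3 library (113 RPM), and 5.37 to 54.0 RPM elsewhere.

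**Figure D2:**
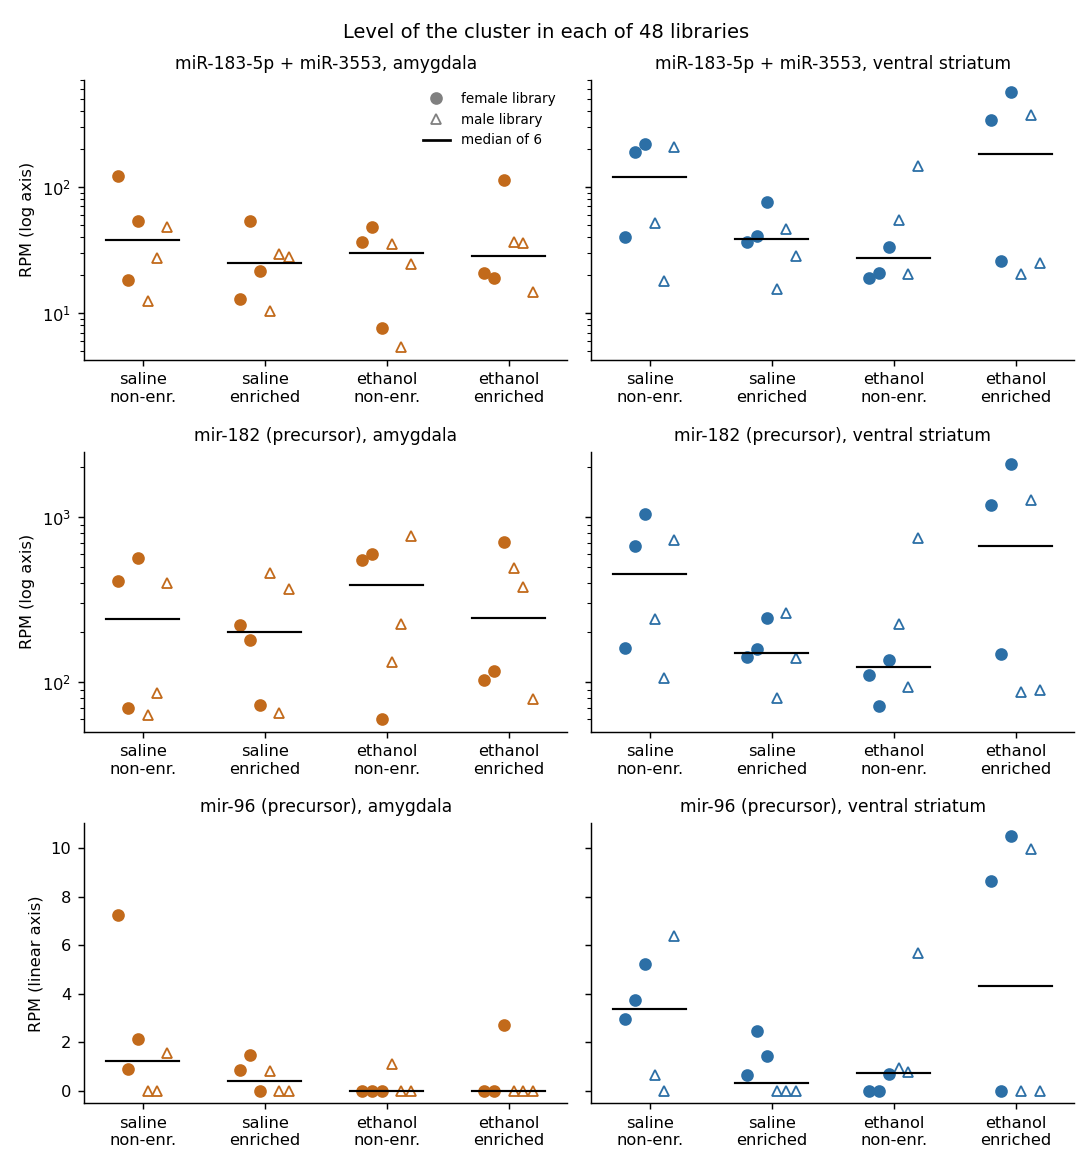
RPM of miR-183-5p with miR-3553 (top, log axis), of mir-182 (middle, log axis) and of mir-96 (bottom, linear axis) in each library by group, with amygdala on the left and ventral striatum on the right; filled circles are female and open triangles male libraries, and bars are medians of 6. The ventral striatum libraries fall into low and high ones in 3 of 4 groups, and the same libraries are high for each of the names.

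Ordered by its mean, the pair was highest in the ethanol-exposed enriched group of the ventral striatum, with 223 ± 231 RPM (SD, n = 6). The control non-enriched group of that region followed with 120 ± 92.6 RPM, the ethanol-exposed non-enriched with 48.9 ± 49.3 RPM, and the control enriched with 40.5 ± 20.2 RPM. In the amygdala the means were 46.9 ± 40.03 RPM in the control non-enriched, 40.01 ± 37.0 RPM in the ethanol-exposed enriched, 26.3 ± 17.1 RPM in the ethanol-exposed non-enriched and 26.04 ± 15.7 RPM in the control enriched group. Each of the 7 steps between neighbours in this order was smaller than the larger SD of the groups it separates, and 5 of them were smaller than the smaller SD. For mir-182 and for mir-96 each of the 7 steps was smaller than either SD.

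For mir-182 the order began with the same groups, at 810 ± 831 RPM in the ethanol-exposed enriched and 492 ± 378 RPM in the control non-enriched ventral striatum (SD, n = 6 each). The ethanol-exposed non-enriched amygdala came next with 388 ± 287 RPM, and the control enriched ventral striatum was last with 171 ± 69.2 RPM. mir-96, the least abundant of the precursor members, ranged from 4.86 ± 5.36 RPM in the ethanol-exposed enriched ventral striatum to 0.181 ± 0.443 RPM in the ethanol-exposed non-enriched amygdala.

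The comparisons of the ventral striatum that chose mir-183, mir-3553 and miR-3553 rested on the divided ethanol-exposed enriched group. For V E(SvN) the pair had a median of 182.5 RPM (20.4 to 559) in the enriched and of 27.2 RPM (18.8 to 146) in the non-enriched libraries. For V S(EvC) the control enriched libraries had a median of 38.6 RPM (15.6 to 75.6). In both comparisons 3 ethanol-exposed enriched libraries lay above all libraries they were compared with, and the other 3, at 20.4 to 26.03 RPM, lay below the median of those libraries.

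Ethanol in non-enriched rats, N(EvC), was tested for the members with limma on log2(RPM + 1). Adjustment was by Benjamini-Hochberg across the names tested in a region, and a difference is given ± SE on that log2 scale, which understates changes of low names. In the amygdala 0 of 910 names, 0%, had an adjusted p under 0.05 and 41 (4.51%) an unadjusted p under 0.05, and of the 6 members 0 and 1 did. That member was mir-96, with a difference of −0.99 ± 0.40 (adjusted p = 0.843). Its values were 0, 0, 0.878, 1.58, 2.15 and 7.26 RPM in the control and 0 in 5 of 6 ethanol-exposed libraries with 1.08 RPM in the other, that is 0 to 4 reads in a library. The pair differed by −0.78 ± 0.64 (adjusted p = 0.848) and mir-182 by 0.61 ± 0.82 (adjusted p = 0.886). Lists of marker miRNAs, described further below, had median differences of 1.49 for choroid plexus, 1.93 for ciliated cells and −0.53 for the mir-200 family. The median for all names was −0.08. By limma 0 of 6, 0 of 5 and 0 of 4 names of these lists had an unadjusted p under 0.05. Their part in the values of the members was not tested. In the ventral striatum 0 of 933 names, 0%, had an adjusted p and 19 (2.04%) an unadjusted p under 0.05, and none of the 6 members had either. The pair differed by −1.18 ± 0.85 and mir-182 by −1.16 ± 0.79, each with an adjusted p of 1. The list medians there were 0.00 for choroid plexus, −1.15 for ciliated cells and −1.09 for the mir-200 family, against 0.01 for all names. Again no name of these lists had an unadjusted p under 0.05 by limma.

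Enrichment in control rats, C(SvN), gave no call for a member in the limma test either. In the amygdala 0 of 910 names (0%) had an adjusted p and 24 (2.64%) an unadjusted p under 0.05, and 0 of the 5 members tested had either. The pair differed by −0.63 ± 0.64 and mir-182 by −0.02 ± 0.82, each with an adjusted p of 1. mir-96 was left out of this test, because the mature name of its reads, miR-96-5p, had stood out in that comparison. In the ventral striatum 0 of 933 names (0%) had an adjusted p and 36 (3.86%) an unadjusted p under 0.05, and none of the 6 members had either. The differences were −1.16 ± 0.85 for the pair, −1.17 ± 0.79 for mir-182 and −1.12 ± 0.68 for mir-96, each with an adjusted p of 1.

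Ethanol in enriched rats of the amygdala, A S(EvC), was the last treatment comparison open to a test. By limma 0 of 910 names (0%) had an adjusted p and 35 (3.85%) an unadjusted p under 0.05, and none of the 6 members had either. The pair differed by 0.44 ± 0.64, mir-182 by 0.33 ± 0.82 and mir-96 by −0.19 ± 0.40, each with an adjusted p of 1. Over the treatment comparisons the SE was 0.64 and 0.85 for the pair and 0.82 and 0.79 for mir-182 in the amygdala and the ventral striatum. Of the 5 tested treatment comparisons all but A C(SvN) share a group of libraries with a comparison that chose a member.

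Females and males were not told apart by these tests. In the amygdala 0 of 910 names (0%) had an adjusted p and 38 (4.18%) an unadjusted p under 0.05 by limma, and in the ventral striatum 0 of 933 (0%) and 27 (2.89%). None of the 6 members had an unadjusted p under 0.05 in either region. Females minus males, the pair differed by 0.52 ± 0.45 in the amygdala (adjusted p = 0.987) and by 0.54 ± 0.60 in the ventral striatum (adjusted p = 1). mir-182 differed by 0.00 ± 0.58 and by 0.40 ± 0.56 (adjusted p = 1 each).

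Between the regions the pair passed the threshold over all libraries and mir-182 did not, but the comparison is not independent of the selection. mir-183, mir-3553 and miR-3553 were chosen by the high ethanol-exposed enriched libraries of the ventral striatum, which enter it. In the control non-enriched libraries, the group that the selection of these names used in neither region, the pair differed by 1.196 ± 0.76 (limma, adjusted p = 0.462). That contrast was taken within the fit to 48 libraries, so its SE and adjusted p draw on the spread of all of them. The RNA of both regions came from the same rats, while limma and the permutation tests below treated the libraries as independent. By limma over 48 libraries the pair differed by 1.08 ± 0.38 (adjusted p = 0.0306), with 108 ± 140 RPM in the ventral striatum and 34.8 ± 29.1 RPM in the amygdala (SD, n = 24 each). mir-183 differed by 0.91 ± 0.33 (adjusted p = 0.0358), mir-3553 by 1.05 ± 0.38 (adjusted p = 0.0347) and miR-3553 by 1.26 ± 0.44 (adjusted p = 0.0288). mir-96 differed by 0.70 ± 0.28 (adjusted p = 0.0578), miR-183-5p by −0.27 ± 0.17 (adjusted p = 0.224) and mir-182 by 0.21 ± 0.41 (adjusted p = 0.755). With consecutive library numbers as a random block the adjusted p was 0.0476 for mir-96 and 0.0240 for the pair. So 3 of 6 members, which count the same reads, were called, all higher in the ventral striatum, where 277 of 915 names (30.3%) were called and 197 (21.5%) were higher in the ventral striatum. A permutation test of mean RPM over libraries (100000 resamples, two-sided) gave p = 0.00646 for the pair, p = 0.0251 for mir-96 and p = 0.284 for mir-182.

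The call for the pair was close to its threshold. Rescaling the libraries by median ratios left 1.01 ± 0.39 (adjusted p = 0.0516) and turned the 197 higher and 80 lower names into 121 and 108. The adjusted p also passed 0.05 without the amygdala ethanol-exposed non-enriched M2 library (0.98, adjusted p = 0.0511), or without any of 4 ventral striatum libraries, namely control non-enriched M3 (0.97, adjusted p = 0.0510), ethanol-exposed non-enriched M3 (0.99, adjusted p = 0.0501), ethanol-exposed enriched F3 (0.97, adjusted p = 0.0514) and ethanol-exposed enriched M2 (0.91, adjusted p = 0.0522). The call for mir-183 was kept in 31, that for mir-3553 in 33 and that for miR-3553 in 47 of 48 fits that left out a library. mir-96 passed in 9 of the 48 (adjusted p down to 0.0118), namely without F1 or M3 of the control non-enriched, M1 of the ethanol-exposed non-enriched or F3 of the ethanol-exposed enriched amygdala, or without M2 of the control non-enriched, M2 of the ethanol-exposed non-enriched or F2, M1 or M3 of the ethanol-exposed enriched ventral striatum. With the replicate block the adjusted p was 0.0450 for the pair and 0.0504 for mir-183 and mir-3553. Consecutive library numbers belonged to a ventral striatum and an amygdala library of the same sex and group, and the pair was higher in the ventral striatum in 18 of these 24 couples and mir-182 in 14. Only 1 of the 7 ventral striatum libraries over 100 RPM had an amygdala counterpart over 100 RPM.

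**Figure D3:**
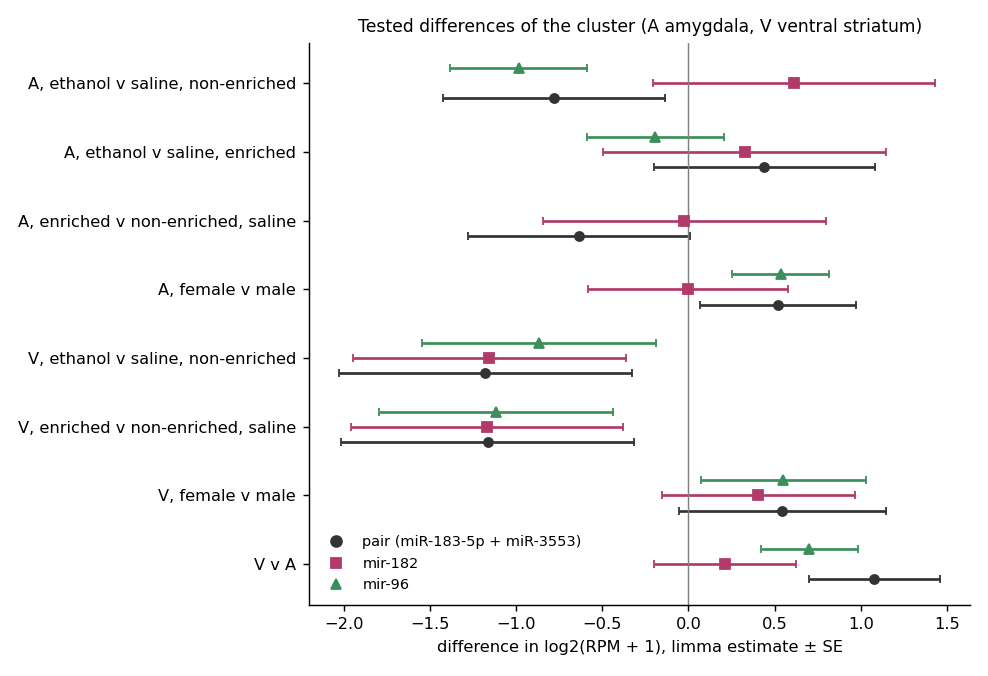
Differences in log2(RPM + 1) with their SE from limma (x) for the pair miR-183-5p with miR-3553 (circles), mir-182 (squares) and mir-96 (triangles) in the comparisons open to a test (y), 24 libraries of a region or 48 for the regions. Among these the circle for the ventral striatum against the amygdala, at 1.08 ± 0.38, is the sole value with an adjusted p under 0.05, in a comparison that includes libraries that chose the members; mir-96 has no point for enrichment in saline rats of the amygdala.

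miR-182 was out of proportion to the pair in many amygdala libraries. The ratio of miR-182 to the pair was 3.71 to 6.95 with a median of 4.71 in the ventral striatum, and 2.56 to 50.8 with a median of 8.07 in the amygdala. In 14 of 24 amygdala libraries it lay above every ventral striatum library, and for the precursors in 12 of 24. Amygdala libraries had a mean log2 ratio of 3.20 ± 1.2002 and ventral striatum libraries one of 2.32 ± 0.28 (SD, n = 24 each), a difference of 0.89 (permutation test over libraries with 100000 resamples, two-sided, p = 0.00062), and it was higher in the amygdala in 19 of 24 couples of consecutive libraries. The precursors gave 0.88 (permutation test, p = 0.00054). The ratio was compared after its values were seen, and ventral striatum libraries that chose names of the pair enter it. The p-values of the ratio are therefore descriptive and not independent evidence. They also treat libraries of the same rats as independent. Leaving out the 4 libraries with fewer than 10 reads of the pair, all from the amygdala, left 0.85 (permutation test, p = 0.00088, n = 20 and 24).

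A list of choroid plexus miRNAs, led by miR-204-5p, moved with miR-182 in the amygdala. The choroid plexus is the tissue of the brain ventricles that makes cerebrospinal fluid. miR-204-5p was by far the most abundant name of the list, at 3085 to 122453 RPM in the amygdala and 3789 to 6958 RPM in the ventral striatum. The sum of the list therefore largely reflects this name. The summed RPM of the 6 mature names of the list was 4357 to 7531 in the ventral striatum, 3424 to 5426 in 11 amygdala libraries and 12466 to 131324 in the other 13. Of these 13 libraries 3 each were control non-enriched, control enriched and ethanol-exposed enriched, and 4 ethanol-exposed non-enriched. miR-182 was 254 to 889 RPM in the 13 and 68.4 to 207 RPM in the 11, without overlap. The pair overlapped, with 5.37 to 122 RPM in the 13 and 7.601 to 54.0 RPM in the 11. Of the 14 high ratios 12 were in the 13 libraries. In the 11 libraries the ratio had a median of 4.33, against 4.71 in the ventral striatum.

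A list for ciliated cells, with miR-34b, miR-34c and miR-449a, was likewise apart within the amygdala, with 3033 to 14274 RPM in the 13 and 157 to 1975 RPM in the 11. Unlike the choroid plexus list, it overlapped the 13 in the ventral striatum, with 154 to 5745 RPM there. No mature name of either list was at 0 in all libraries of a region, although miR-1264 was not among the names found in the table. The split was made on the choroid plexus list after the values were seen, and miR-182 did not overlap between the 13 and the 11. What follows is therefore a description without a test. The mean log2 ratio was 2.28 in the 11 and 3.98 in the 13, against 2.32 in the ventral striatum. For mir-182 the ventral striatum minus the 11 was 1.52 and minus the 13 was −0.82, and for the pair these differences were 1.46 and 0.73. The part of choroid plexus or ciliated cells in these results was not tested. In bulk tissue more cells of a type and more RNA in each cell cannot be told apart.

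**Figure D4:**
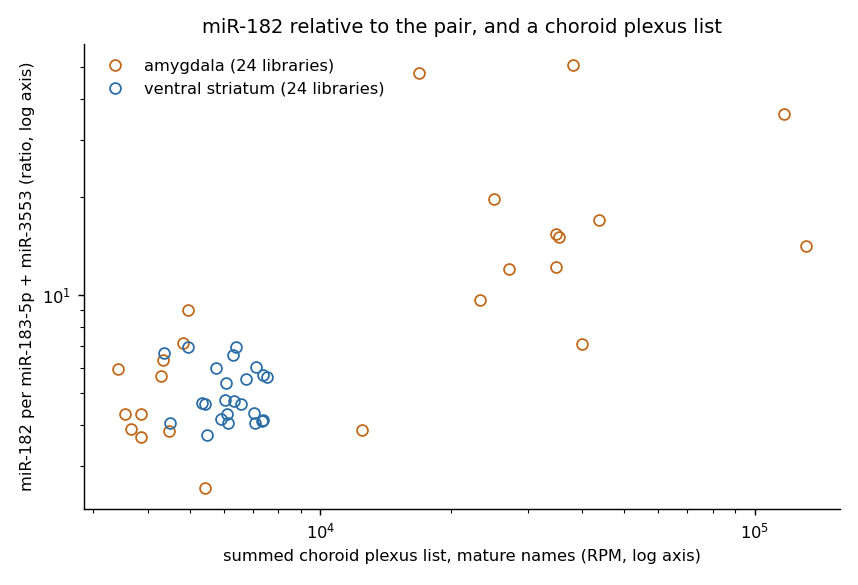
Ratio of miR-182 to the pair miR-183-5p with miR-3553 (y, log axis) against the summed RPM of 6 mature choroid plexus miRNAs (x, log axis), a circle for each of 48 libraries. The ventral striatum libraries form a single cloud between 3.71 and 6.95, and 12 of the 13 amygdala libraries whose list exceeded every ventral striatum library lie above it.

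In the ventral striatum the members moved together and with the mir-200 family, miRNAs of epithelia and of olfactory tissue. By the rule used, the names outside the cluster most like the pair over 48 libraries were miR-200a-3p (Spearman rho = 0.85, Pearson r of log2 values = 0.89, and 0.86 without the 2 libraries farthest from the median), mir-200a (0.85, 0.88 and 0.84), miR-429 (0.82, 0.86 and 0.81), mir-429 (0.82, 0.86 and 0.82) and mir-3548, whose mean of 5.9e-06 RPM is far under 1 read. mir-3548 had the same rho as mir-200a (0.851 over 48 libraries). miR-200a-3p and mir-200a largely count the same reads, as do miR-429 and mir-429, so these names are not separate lines of evidence. The candidates were 850 names. The rho of miR-200a-3p was 0.75 within the amygdala, 0.95 within the ventral striatum and 0.87 for deviations from the means of sex and group. All libraries share the scaling to RPM, and these correlations are given as a description.

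miR-200a-3p was 27.6 to 142.8 RPM in the 7 ventral striatum libraries with over 100 RPM of the pair and 0 to 24.9 RPM in the other 17, without overlap. miR-429 was 11.3 to 71.9 RPM against 0 to 12.2 RPM. miR-141-3p, of the same family, overlapped with 80.2 to 274 RPM against 14.5 to 244 RPM. For comparison the rho of mir-182 to the pair was 0.95 within the ventral striatum and 0.57 within the amygdala, and that of mir-96 was 0.88 and 0.49. Between the regions miR-429 was higher in the ventral striatum by 1.23 ± 0.46 (limma, adjusted p = 0.0418) and miR-200a-3p differed by 0.87 ± 0.56 (adjusted p = 0.246). Beside the 30.3% of all names called between the regions, 1 of 4 mature names tested of the mir-200 family was called (higher in the ventral striatum), 2 of 6 of choroid plexus (both lower), 4 of 10 of brain tissue (2 in each direction), 1 of 5 of vessels (higher) and 1 of 5 of pituitary and endocrine cells (lower). By limma 0 of 5 of ciliated cells, 0 of 4 of muscle and 0 of 3 of red blood cells were called, and 3, 1 and 0 had an unadjusted p under 0.05. The median difference was 0.83 for the mir-200 family, −0.67 for choroid plexus and −1.41 for ciliated cells, against 0.08 for all names.

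**Figure D5:**
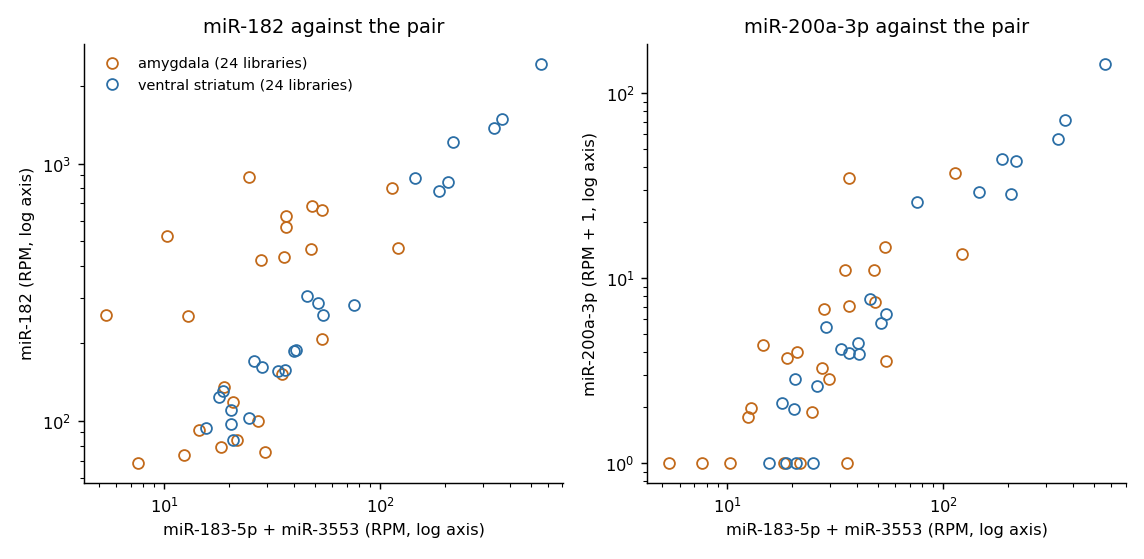
miR-182 (left, RPM) and miR-200a-3p (right, RPM + 1) against the pair miR-183-5p with miR-3553 (RPM) on log axes, a circle for each of 24 amygdala and 24 ventral striatum libraries. In the left panel the ventral striatum libraries lie along a line and many amygdala libraries above it; in the right panel the regions follow the same course (rho = 0.85 over 48 libraries).

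The summed mature names of the mir-200 family were 13.4 to 795 RPM in the amygdala and 16.4 to 519 RPM in the ventral striatum, with miR-200b-5p at 0 in every amygdala library. Their rho to the pair was 0.77 and 0.92 within the regions. The median of the list was 94.3 RPM in the control non-enriched, 54.9 in the control enriched, 23.3 in the ethanol-exposed non-enriched and 135 in the ethanol-exposed enriched ventral striatum, so that it was highest in the groups where the pair was highest, and its part in the values of the members was not tested. The other lists followed the pair less. Within the ventral striatum the rho was 0.13 for choroid plexus, −0.26 for ciliated cells, 0.21 for pituitary and endocrine cells, 0.10 for red blood cells, 0.27 for vessels, 0.24 for muscle and 0.17 for brain tissue. Within the amygdala these were 0.36, 0.30, 0.21, 0.04, −0.31, 0.09 and −0.41. Across the ventral striatum pituitary and endocrine names added up to 5888 to 19459 RPM, vessel names to 25748 to 68078 RPM, red blood cell names to 14.8 to 53.0 RPM, muscle names to 0 to 20.3 RPM and brain names to 29448 to 55925 RPM.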

How the data were processed

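Small RNA of pools of rat amygdala and ventral striatum was sequenced by the authors (TruSeq Small RNA, MiSeq), trimmed, aligned with Bowtie to Rn5 and quantified in Partek Flow against miRBase 21; versions of Bowtie and Partek are not given in the sources used here. The deposited signal, described as RPM, adds up to 999999 to 1000001 for mature and again for precursor names in each library. Among values under 10 reads, whole reads (within 0.05) made up 93.8% to 99.4% for mature and 85.7% to 96.6% for precursor names. These shares leave out small fractions of a read, such as most values of miR-183-5p, and no count test was used. Lines sharing a name (122 lines of 56 names) were summed, and the pair miR-183-5p with miR-3553 was added as a row.

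Names above 0 in at least 6 of 24 (12 of 48) libraries were tested with limma 3.58.1 in R 4.3.3 (eBayes with trend) on log2(RPM + 1), with sex and group as cells, two-sided, adjusted by Benjamini-Hochberg. Permutation tests used Python 3.11.15 and scipy 1.17.1. Calculations were tested on simulated data. Members, marker lists and the rule for named miRNAs (members, other names of the hairpins, and the 5 names outside the cluster with the highest Spearman rho to the pair among names above 0 in at least 24 libraries) were chosen with earlier results of these data known. Lists covered the mir-200 family, choroid plexus, ciliated cells, pituitary and endocrine cells, red blood cells, vessels, muscle and brain tissue. Alternatives were pseudocounts, filters, rescaling, separate fits, a replicate block, fits to 12 libraries and each library left out. Others were lines kept apart, library numbers as a random block, and the regions contrasted in control non-enriched libraries within the fit to 48 libraries. The ratio of miR-182 to the pair and the split of the amygdala by the choroid plexus list were added after the values were seen.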

Additional observations from a re-analysis of the deposited data

Results flagged for a closer look

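Of 57 groups of 6 libraries in which a member, the pair or another name of the hairpins passed 3 reads, 16 had a library apart from the rest. This was by Dixon's test of gap over range on RPM, and many of the 16 count the same reads. Chance flags about 1 in 20 where values are normally distributed, which was not tested for these widely spread names. All 16 came from 3 libraries, in each case the highest of its group. The ethanol-exposed non-enriched ventral striatum M3 library had 146 RPM of the pair and of miR-3553 (nearest library 54.3 RPM), 18.5 RPM of mir-183, 114 RPM of mir-3553, 742 RPM of mir-182, 879 RPM of miR-182, 5.70 RPM of mir-96 and 6.78 RPM of miR-96-5p. The ethanol-exposed enriched amygdala F3 library had 113 RPM of the pair and of miR-3553 (nearest library 36.7 RPM), 15.9 RPM of mir-183 and 97.6 RPM of mir-3553. The control non-enriched amygdala F1 library had 15.5 RPM of mir-183, 95.2 RPM of mir-3553, 7.26 RPM of mir-96 and 8.38 RPM of miR-96-5p. The divided ethanol-exposed enriched ventral striatum group, with 3 high and 3 low libraries, was not among the 16.

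Differences of a treatment effect between the sexes or the regions were tested with limma in 7 comparisons that had not chosen the members. Of 59 values 0 had an adjusted p under 0.05 and 2 an unadjusted p under 0.05, namely mir-96 (−1.77 ± 0.80, adjusted p = 1) and miR-96-5p (−1.91 ± 0.86, adjusted p = 1) for the ethanol effect in non-enriched females against males of the amygdala. These names count the same reads, and 26 of 910 names (2.86%) had an unadjusted p under 0.05 in that comparison. Over the 7 comparisons this share was 1.54% to 3.61%, and 0 names had an adjusted p under 0.05 in 6 of them and 1 in the other, enrichment in control females against males of the ventral striatum.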

How the results depend on the processing

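For the ventral striatum against the amygdala the pair kept its direction under every alternative. Its difference fell short of the threshold with median-ratio rescaling (1.01) and in the contrast of control non-enriched libraries within the fit to 48 libraries (1.196, limma, adjusted p = 0.462). It also fell short with the amygdala libraries of a low (1.46) or a high (0.73) choroid plexus list alone. Leaving out each library gave 0.91 to 1.25. For mir-182 the high list alone gave −0.82 and the low list alone 1.52, and for the ratio of miR-182 to the pair the low list alone gave −0.0357 (mature) and −0.0233 (precursor). That split was made on the choroid plexus list and changes the libraries compared, not the processing. miR-182 did not overlap between the amygdala libraries of a low and of a high list. The cause of these changes was not tested. The number of names called between the regions was 277, and 166 with the low list alone, which holds fewer libraries. In the contrast of control non-enriched libraries within the full fit, which compares fewer libraries, it was 49. Leaving out each library gave 254 to 302.

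In the treatment and sex comparisons the counts of 0 became 1 for A E(SvN) with the pseudocount 0.1, for A E(SvN), V N(EvC) and V S(EvC) with the 12 libraries compared alone, and 0 to 1 over the libraries left out for A N(EvC), A E(SvN), V N(EvC), V S(EvC), V E(SvN) and the sexes in each region. The single calls came without the amygdala libraries ethanol-exposed non-enriched F3, control non-enriched M3 and control enriched M3 and the ventral striatum libraries ethanol-exposed non-enriched M2 and ethanol-exposed enriched M3. In the comparisons that chose the members limma gave 0 names by adjusted p and 24 (A E(SvN)), 21 (V S(EvC)) and 17 (V E(SvN)) with an unadjusted p under 0.05. mir-182 reversed from a difference near 0 in A S(EvC) (−0.12 to 0.73 over libraries left out), A C(SvN) (−0.49 to 0.41) and between the sexes of the amygdala (−0.22 to 0.27, with rescaling 0.0409, with the pseudocount 10 0.000903, and 11.95 RPM in the permutation test). The cause of the changes in the treatment and sex comparisons was not tested.

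No pairing by replicate number was seen. Deviations of libraries sharing a number and sex correlated with a median of 0.0007 (A) and 0.0018 (V), and 12 and 16 of 36 pairs were over 0.1. With the replicate block 288 names were called between the regions, the pair differed by 1.08 (adjusted p = 0.0450), and mir-183 (0.91) and mir-3553 (1.05) had an adjusted p of 0.0504. With consecutive library numbers as a random block 287 names were called, and mir-96 came past the threshold (0.70, adjusted p = 0.0476). Lines kept apart hold no row for the pair. With libraries of more than 3 reads of the pair alone, 2 in place of 3 gave over 1% to miR-183-5p. Depth limits mir-96 and miR-183-5p, which had at most a few reads in most libraries.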
